A study of Mus musculus with 2 samples.

Results

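The extracellular matrix of the embryonic brain and the receptors that bind it were followed here through 49 genes: laminin chains, integrin subunits, collagens, basement membrane linkers, matrix glycoproteins and proteoglycans. They were chosen by name as families of the matrix and its receptors, with earlier results of these data known. All 49 were found by symbol among the 24411 genes counted. The shares of all genes given below are therefore a scale for the counts and not a test. The counts come from fresh-frozen mouse brain at embryonic day 16.5, with 1 library from the subventricular zone (SVZ), a germinal layer near the ventricle, and 1 from the cortex. No strain, genotype or treatment is named for either area, and the labels do not say how many embryos gave tissue to each library. Each area was cut by laser capture microdissection (LCM) from stained cryosections and sequenced as bulk RNA. STAR, the aligner, assigned 51435667 reads to genes in the SVZ library against 22050693 from the cortex, and SVZ and cortex below stand for these single libraries. With 1 library per area no difference has a replicate check, no test between the areas was made, and the intervals given cover counting error only. In bulk tissue, fewer cells of a type and less RNA per cell cannot be told apart.

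Laminins are trimers of an alpha, a beta and a gamma chain that assemble into basement membranes, the thin sheets under the pia and around vessels. Collagen IV forms a second network there, and nidogen, perlecan and agrin join the networks to each other and to cells. Integrins, each made of an alpha and a beta subunit, and dystroglycan anchor cells such as radial glia to these sheets. Between brain cells the matrix is of another kind, built on hyaluronan, chondroitin sulfate proteoglycans of the lectican family, link proteins and tenascins.

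The 2 libraries had close totals for the genes together, and unlike make-up. Reads per gene were divided by the library's gene-assigned reads and given as counts per 1000000 (CPM), and the 49 genes summed to 2916 CPM in the SVZ and 2799 CPM in the cortex. *Ncan*, the gene of neurocan, a brain proteoglycan of the lectican family, held 54.5% of these reads in the SVZ (exact binomial 95% interval 54.3% to 54.8%) and 69.7% in the cortex (69.3% to 70.0%). Without *Ncan* the sums were 1326 and 849 CPM, 1.56-fold higher in the SVZ. *Tnc*, tenascin-C, held 10.3% of the matrix and integrin reads in the SVZ and 0.0616% in the cortex. *Vcan*, versican, held 0.970% and 7.31%.

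Of the 49 genes, 39 reached a mean of 1 CPM between the libraries and 10 did not. Of the 39, 14 were at least 2-fold higher by CPM in the SVZ (35.9%, against 20.0% of all 12738 genes with the same mean), and 6 were at least 2-fold higher in the cortex (15.4%, against 15.6%). At least 4-fold, 7 were higher in the SVZ (17.9%, against 10.2%) and 3 in the cortex (7.69%, against 7.01%). Of the genes past 2-fold, *Lama5*, *Lamb2*, *Itgb5* and *Bcan* were under 1 CPM in the cortex. On the other side *Tnr*, *Col3a1*, *Lum* and *Itga8* were under 1 CPM in the SVZ. These genes reached the mean through the library where they were high, as genes among the 12738 also could. With 1 CPM added to both values *Itgb8*, *Itga8* and *Lum* were within 2-fold. The counting interval of the ratio lay wholly on the SVZ side for 20 genes and on the cortex side for 14, where it did so for 48.2% and 38.6% of all genes. For 5 genes it included equal CPM. The median log2 ratio, SVZ over cortex, was 0.36 over the 39 genes and 0.11 over all 12738. The 39 genes were long, with a median of 8272 exonic bases against 4601 for all genes with a known length, and the 2212 genes at least that long had a median log2 ratio of -0.07.

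**Figure D1:**
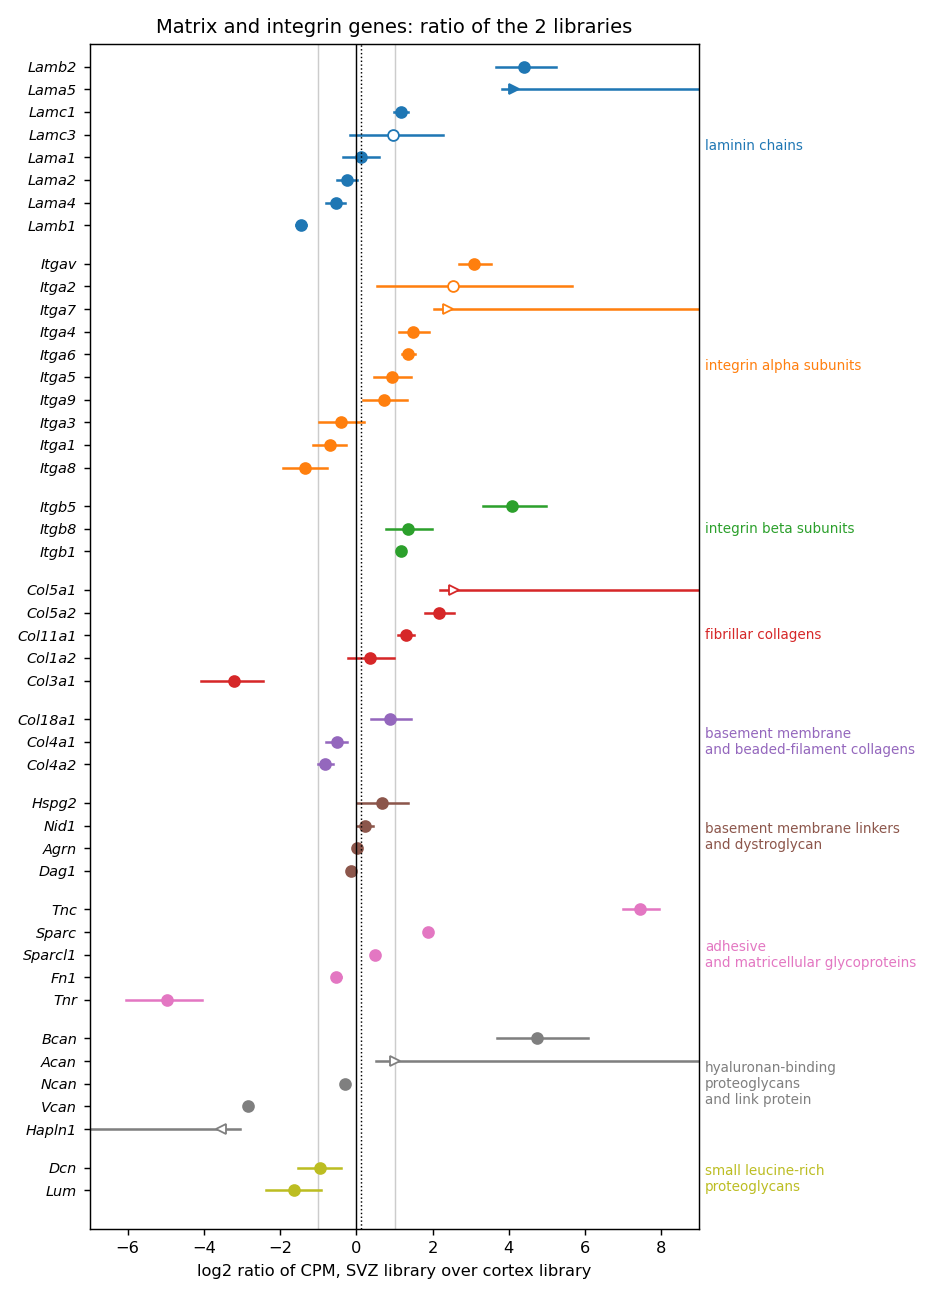
Log2 ratio of CPM, SVZ library over cortex library, on the horizontal axis for the 45 genes with over 3 reads in at least 1 library, grouped and coloured by role. Bars are exact 95% counting intervals, triangles are bounds for genes with no read in 1 library, open symbols have a mean under 1 CPM, grey lines mark 2-fold and the dotted line is the median of all genes. *Tnc* lies farthest to the right at 7.45 and *Tnr* farthest to the left at -4.97.

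**Figure D2:**
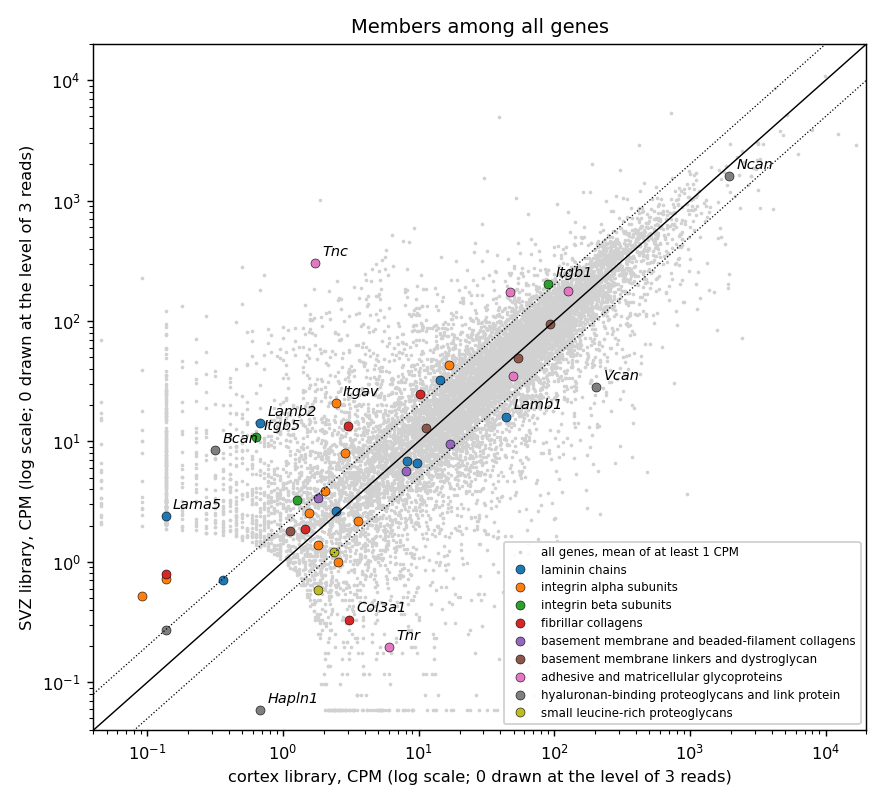
CPM in the cortex (horizontal) and in the SVZ (vertical), both on log scales, for all genes whose mean reached 1 CPM in grey and the 45 genes coloured by role. The solid line marks equal CPM, the dotted lines 2-fold, and a count of 0 is drawn at the level of 3 reads. *Ncan* is the most counted of the coloured genes in both libraries, at 1590 and 1950 CPM (SVZ and cortex), and *Tnc* stands at 301 CPM in the SVZ against 1.72 in the cortex.

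The tenascins, large glycoproteins that bind lecticans and modulate cell adhesion, held the largest ratio on either side among the 40 genes with reads in both libraries. *Tnc* (GRCm38 chromosome 4, 63959785 to 64047015, minus strand) had 15482 reads in the SVZ and 38 in the cortex, or 301 and 1.72 CPM. That is a log2 ratio of 7.45 with a counting interval of 6.99 to 7.95, a CPM 175-fold higher in the SVZ. *Tnr*, tenascin-R, a component of nets around neurons in the mature brain (chromosome 1, 159523769 to 159931729, plus strand), had 10 and 134 reads, or 0.194 and 6.08 CPM. The log2 ratio was -4.97 (-6.06 to -4.04), a CPM 31.3-fold higher in the cortex. Thus the *Tnc* to *Tnr* read ratio was 1548 in the SVZ and 0.284 in the cortex. The promoters of these genes are shown because they are relatives that stood at opposite ends of the comparison. Each window runs from 250 bases before a transcription start to 50 after it, 5′ to 3′ on the gene's own strand, from RefSeq on GRCm38.p6, with matches to TATAA on either strand in capitals. The *Tnc* window is chr4:64046887-64047186 (minus strand) and the *Tnr* window chr1:159523519-159523818 (plus strand).
Tnc: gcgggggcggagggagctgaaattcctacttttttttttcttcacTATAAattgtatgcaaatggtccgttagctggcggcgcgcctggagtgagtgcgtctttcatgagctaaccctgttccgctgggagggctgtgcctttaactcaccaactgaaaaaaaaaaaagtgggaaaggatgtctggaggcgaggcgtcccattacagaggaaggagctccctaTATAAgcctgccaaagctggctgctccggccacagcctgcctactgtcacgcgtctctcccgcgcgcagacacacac
Tnr: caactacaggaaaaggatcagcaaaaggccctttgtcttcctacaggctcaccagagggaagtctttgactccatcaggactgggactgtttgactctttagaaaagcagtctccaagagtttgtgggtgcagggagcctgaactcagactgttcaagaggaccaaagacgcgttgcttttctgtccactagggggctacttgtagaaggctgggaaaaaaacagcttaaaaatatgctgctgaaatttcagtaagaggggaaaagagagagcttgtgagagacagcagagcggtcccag
The printed *Tnc* window held TATAA at 27 and 205 bases before the start. The farther of these also lies in the window of another annotated *Tnc* start (chr4:64046966-64047265), 126 bases before that start. The *Tnr* window held no match. TATAA stood in 24.9% of the 32851 promoter windows of all genes and in 7 of the 42 windows of the 36 matrix and integrin genes that had one. The printed *Tnc* window held 16 CG dinucleotides, the other *Tnc* window 10 and the *Tnr* window 3, beside a median of 7 over all windows. These matches describe the letters only.

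The other adhesive and matricellular glycoproteins lay closer together. *Sparc*, a collagen-binding matricellular protein, had 8940 reads in the SVZ and 1045 in the cortex (174 and 47.4 CPM), a log2 ratio of 1.87 (1.78 to 1.97). Its relative *Sparcl1*, hevin, had 9118 and 2786 reads (177 and 126 CPM), for a log2 ratio of 0.49 (0.43 to 0.55). *Fn1*, fibronectin, the ligand of several integrins, went the other way with 1783 and 1101 reads (34.7 and 49.9 CPM), for a log2 ratio of -0.53 (-0.64 to -0.42). *Sparcl1* and *Fn1* were both within 2-fold of equal CPM.

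The lecticans, the chondroitin sulfate proteoglycans that bind hyaluronan, were split between the areas. *Ncan* (chromosome 8, 70093085 to 70120873) had 81779 reads in the SVZ and 42989 in the cortex, or 1590 and 1950 CPM, a log2 ratio of -0.29 (-0.31 to -0.28). It was abundant in both libraries. *Vcan* (chromosome 13, 89655312 to 89742509) had 1454 and 4510 reads, or 28.3 and 204.5 CPM, for a log2 ratio of -2.86 (-2.94 to -2.77), a CPM 7.24-fold higher in the cortex. *Bcan*, brevican, a lectican made largely by glia (chromosome 3, 87987531 to 88000230), had 438 and 7 reads, or 8.52 and 0.317 CPM, for a log2 ratio of 4.75 (3.69 to 6.07) towards the SVZ. *Acan* and *Hapln1* were under 1 CPM. *Acan*, aggrecan, had 14 reads in the SVZ and 0 in the cortex. *Hapln1*, the link protein that ties lecticans to hyaluronan, had 0 reads in the SVZ and 15 in the cortex. That is 11.7-fold higher in the cortex when a count of 0 is set at a floor of 3 reads (counting interval up to log2 -3.06). Relative to *Ncan*, *Vcan* reads were 0.0178 in the SVZ and 0.105 in the cortex, a log2 difference of -2.56 (approximate counting interval -2.65 to -2.47).

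The laminin chains summed to 81.9 CPM in the SVZ and 79.8 CPM in the cortex, but individual chains differed in both directions. Of 7 chains with a mean of at least 1 CPM, 3 were at least 2-fold higher in the SVZ and 1 in the cortex, beside 20.0% and 15.6% of all genes. The beta chains stood opposite each other. *Lamb1* (chromosome 12, 31265234 to 31329644) had 825 reads in the SVZ and 972 in the cortex, or 16.0 and 44.1 CPM, a log2 ratio of -1.46 (-1.59 to -1.32). *Lamb2*, the beta chain of later basement membranes and synapses (chromosome 9, 108479736 to 108490530), had 735 and 15 reads, or 14.3 and 0.680 CPM, for a log2 ratio of 4.39 (3.66 to 5.24). The *Lamb2* to *Lamb1* read ratio was therefore 0.891 in the SVZ and 0.0154 in the cortex, a log2 difference of 5.85 (5.10 to 6.60). *Lamc1*, the gamma chain of most laminins, had 1660 and 317 reads (32.3 and 14.4 CPM), for a log2 ratio of 1.17 (0.99 to 1.35), so that its direction was that of *Lamb2* and not of *Lamb1*.

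Among the laminin alpha chains *Lama5* alone was past 2-fold. It had 123 reads in the SVZ and 0 in the cortex, 17.6-fold higher in the SVZ against the floor of 3 reads (counting interval from log2 3.82). *Lama4*, an alpha chain of vessel walls, had 342 and 214 reads, for a log2 ratio of -0.55 (-0.80 to -0.29). *Lama2*, a chain of muscle and vessel basement membranes, had 353 and 180 reads, for a log2 ratio of -0.25 (-0.51 to 0.02), and *Lama1*, the chain of early embryonic basement membranes, had 137 and 54 reads, for a log2 ratio of 0.12 (-0.34 to 0.60). A difference in *Lama1* or *Lama2* was not detectable at this depth. *Lamc3* was under 1 CPM, with 36 and 8 reads, for a log2 ratio of 0.95 (-0.18 to 2.26).

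The integrin beta subunits *Itgb1*, *Itgb5* and *Itgb8* were higher in the SVZ. *Itgb1*, the partner of most alpha subunits and the most abundant integrin here (chromosome 8, 128685654 to 128733200), had 10416 reads in the SVZ and 1988 in the cortex, or 202.5 and 90.2 CPM, a log2 ratio of 1.17 (1.10 to 1.24). *Itgb5* (chromosome 16, 33829665 to 33949338), which pairs with the alpha V subunit in a vitronectin receptor, had 556 and 14 reads, or 10.8 and 0.635 CPM, for a log2 ratio of 4.09 (3.33 to 4.97). *Itgb8*, another alpha V partner, known for activating latent TGF-beta, had 168 and 28 reads, or 3.27 and 1.27 CPM, for a log2 ratio of 1.36 (0.78 to 2.00). *Itgb3* was listed at 0 reads in both libraries, which allows up to 0.0583 CPM in the SVZ and 0.136 CPM in the cortex.

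Of the alpha subunits, 8 had a mean of at least 1 CPM, with 3 at least 2-fold higher in the SVZ and 1 in the cortex (20.0% and 15.6% of all genes). *Itgav*, alpha V, had 1077 reads in the SVZ and 54 in the cortex (20.9 and 2.45 CPM) and the largest ratio of these 8, log2 3.10 (2.70 to 3.52). *Itgav* thus had the direction of both of its partners *Itgb5* and *Itgb8*. *Itga6*, a laminin receptor subunit, had 2204 and 367 reads (42.9 and 16.6 CPM), with a log2 ratio of 1.36 (1.20 to 1.53). Its reads relative to *Itgb1* were nearly alike, 0.212 in the SVZ and 0.185 in the cortex, a log2 difference of 0.20 (0.02 to 0.37). *Itga4*, which binds fibronectin and VCAM1, had 414 and 63 reads, for a log2 ratio of 1.49 (1.11 to 1.90). Its counts are less certain than the interval shows, since the stranded count columns, which assign reads that overlap a gene on the opposite strand, held 68 more reads in the SVZ and 5 more in the cortex.

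The remaining alpha subunits were low. *Itga5*, the classical fibronectin receptor subunit, and *Itga9* leaned to the SVZ with log2 ratios of 0.92 (0.45 to 1.42) and 0.74 (0.18 to 1.32). *Itga8*, an RGD-binding subunit, was the 1 alpha subunit over 2-fold higher in the cortex, with 51 reads in the SVZ and 56 in the cortex and a log2 ratio of -1.36 (-1.93 to -0.78). *Itga1*, a collagen receptor subunit, had 113 and 79 reads, for a log2 ratio of -0.71 (-1.13 to -0.27). *Itga3*, a laminin receptor subunit of radial glia and migrating neurons, had 71 and 40 reads with a log2 ratio of -0.39 (-0.97 to 0.20), where no difference was detectable at this depth. *Itga2* (27 and 2 reads) and *Itga7* (37 and 0 reads) were under 1 CPM. The log2 ratio of *Itga2* was 2.53 with a wide interval of 0.54 to 5.65. *Itga7* stood 5.29-fold higher on the SVZ side against the floor of 3 reads (counting interval from log2 2.03).

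Fibrillar collagens are the rope-like collagens of connective tissue, with types V and XI as minor chains that start fibrils. *Col11a1* had 1279 reads in the SVZ and 224 in the cortex (24.9 and 10.2 CPM), a log2 ratio of 1.29 (1.09 to 1.50). *Col5a2* had 695 and 66 reads (13.5 and 2.99 CPM), for a log2 ratio of 2.17 (1.81 to 2.56). *Col5a1*, under 1 CPM, had 41 and 0 reads, 5.86-fold higher in the SVZ against the floor of 3 reads (counting interval from log2 2.19). These 3 chains were thus on the SVZ side. *Col3a1*, type III collagen, a ligand of the receptor Adgrg1 in the developing cortex, was on the other side with 17 and 68 reads (0.331 and 3.08 CPM), a log2 ratio of -3.22 (-4.08 to -2.44). *Col1a2* had 96 and 32 reads, for a log2 ratio of 0.36 (-0.23 to 0.99), while *Col1a1*, its partner in type I collagen, had 0 and 2 reads, too few for a ratio.

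Of the basement membrane collagens among the 49 genes, *Col4a1*, *Col4a2* and *Col18a1* were within 2-fold of equal CPM. *Col4a1* and *Col4a2*, the chains of the common collagen IV, are transcribed away from each other from adjacent starts, and both had the higher CPM in the cortex. *Col4a1* (chromosome 8, 11198423 to 11312826, minus strand) had 291 reads in the SVZ and 178 in the cortex (5.66 and 8.07 CPM), a log2 ratio of -0.51 (-0.79 to -0.24). *Col4a2* (chromosome 8, 11312805 to 11449287, plus strand) had 493 and 373 reads (9.58 and 16.9 CPM), for a log2 ratio of -0.82 (-1.02 to -0.62). The log2 ratios differed by 0.31 with an approximate counting interval of -0.03 to 0.64, so a difference between the partners was not detectable. Their annotated ends overlap at the starts, where reads are left uncounted, and the stranded columns added none to either gene. The 78 bases that both RefSeq promoter windows hold are printed as the reason to read these chains as a pair, on the plus strand, 5′ to 3′, at GRCm38.p6 chr8:11312777-11312854, with no capitals because TATAA was absent.
Col4a1 and Col4a2 shared: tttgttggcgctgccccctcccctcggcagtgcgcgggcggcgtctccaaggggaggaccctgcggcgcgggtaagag
This stretch held 9 CG dinucleotides. *Col18a1*, whose product carries endostatin, had 173 and 40 reads, for a log2 ratio of 0.89 (0.39 to 1.42). The collagen VI chains *Col6a1* (1 and 0 reads) and *Col6a2* (0 and 0 reads), which form beaded filaments around connective tissue cells, were not detectable in either library at this depth. *Col6a3*, a collagen VI chain outside the 49 genes named after its value was seen, had 9 and 25 reads. Its mean was under 1 CPM and its log2 ratio -2.70 (-3.98 to -1.55).

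Of the genes that join basement membranes to cells, *Agrn*, *Dag1* and *Nid1* were nearly level between the areas, and *Hspg2* leaned to the SVZ. *Agrn*, agrin, had 4825 reads in the SVZ and 2032 in the cortex, or 93.8 and 92.2 CPM, for a log2 ratio of 0.03 (-0.05 to 0.10), whose sign turned under the other scalings of the libraries. *Dag1*, dystroglycan, the laminin and agrin receptor, had 2512 and 1185 reads, or 48.8 and 53.7 CPM, for a log2 ratio of -0.14 (-0.24 to -0.04). *Nid1*, nidogen-1, had 671 and 248 reads, for a log2 ratio of 0.21 (0.00 to 0.43). *Hspg2*, perlecan, had 92 and 25 reads, for a log2 ratio of 0.66 (0.01 to 1.36). None of these 4 genes was past 2-fold.

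Decorin and lumican are small leucine-rich proteoglycans that bind collagen fibrils and are made by fibroblasts. Both were near the lower limit and higher in the cortex. *Dcn* had 62 reads in the SVZ and 52 in the cortex, a log2 ratio of -0.97 (-1.52 to -0.41), and *Lum* had 30 and 40 reads, a log2 ratio of -1.64 (-2.37 to -0.92).

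Levels of different genes were compared per length, as reads per kilobase of annotated exons per 1000000 gene-assigned reads (RPKM). *Ncan* ranked first in both libraries at 221 RPKM (SVZ) and 271 RPKM (cortex), followed in both by *Sparcl1* (60.4 and 43.0 RPKM) and *Itgb1* (49.6 and 22.1 RPKM). *Sparc* came next in the SVZ at 45.9 RPKM and *Vcan* in the cortex at 14.1 RPKM. Further down, *Tnc* stood at rank 5 in the SVZ (38.7 RPKM) and rank 29 in the cortex (0.222 RPKM). *Bcan* stood at rank 13 and rank 39, *Lamb2* at rank 12 and rank 37, and *Tnr* at rank 44 and rank 19. Among laminin chains the highest level per length was that of *Lamc1* in the SVZ (3.90 RPKM) and of *Lamb1* in the cortex (4.44 RPKM). Among integrin alpha subunits *Itga6* was highest in both, at 4.75 and 1.84 RPKM. The length taken for a gene moved some of these levels, and with the longest transcript in place of all exons *Itga6* stood at 9.94 and 3.86 RPKM (SVZ and cortex), *Lamb1* in the cortex at 7.62 RPKM and *Sparc* in the SVZ at 75.6 RPKM, which put *Sparc* at rank 2 there, ahead of *Sparcl1* and *Itgb1*.

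**Figure D3:**
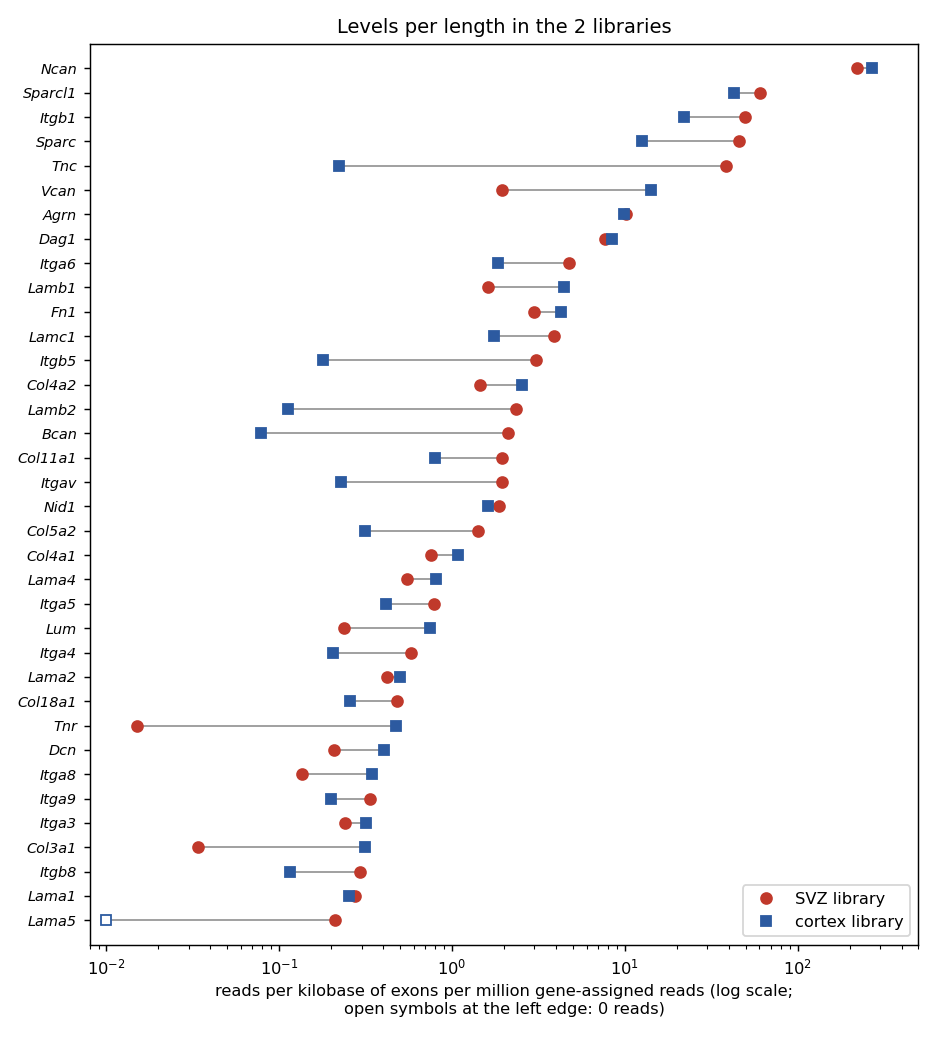
Level per length in the SVZ (circles) and in the cortex (squares), in reads per kilobase of exons per 1000000 gene-assigned reads on a log scale, for the 36 genes with at least 0.2 in 1 library, ordered by the higher value. A line joins the libraries and an open symbol stands for 0 reads. *Ncan* leads at 221 and 271, and the longest lines belong to *Tnc*, *Tnr*, *Bcan*, *Lamb2* and *Itgb5*, beside *Lama5* with no cortex read.

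Genes that make, process or read the matrix were then counted from 7 lists, again by a 2-fold size among those whose mean reached 1 CPM. The counts stand beside 20.0% (SVZ) and 15.6% (cortex) of all genes. A gene near 0 in 1 library could reach this mean through the other alone, in these lists as among all genes. Of 19 proteins of integrin adhesions inside the cell, 6 were higher in the SVZ and 0 in the cortex. The most separated was *Parva*, an actin-binding partner of integrin-linked kinase, with 1826 and 33 reads, for a log2 ratio of 4.57 (4.07 to 5.11). *Ptk2*, focal adhesion kinase, was the farthest on the cortex side at -0.71 (-0.78 to -0.65), within 2-fold. Of 16 genes for the glycosylation and complex of dystroglycan, 2 were higher in the SVZ (12.5%, below the 20.0% of all genes) and 0 in the cortex, with *Ispd* at 1.35 (1.08 to 1.63) and *Large* at -0.91 (-1.03 to -0.79). Under the TMM, DESeq2 and upper-quartile scalings of the libraries this list had 1 gene past 2-fold on each side. Both *Ispd* and *Large* make the sugar chain by which dystroglycan binds laminin.

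Among 11 genes for collagen processing and cross-linking, 6 were higher in the SVZ and 1 in the cortex. *P4ha3*, a prolyl hydroxylase subunit, had 1687 and 0 reads, 241-fold higher in the SVZ against the floor of 3 reads (counting interval from log2 7.61). *Loxl2*, a lysyl oxidase, had 38 and 77 reads, for a log2 ratio of -2.24 (-2.84 to -1.66). Of 24 collagens outside the 49 genes, 10 reached a mean of 1 CPM, with 7 higher in the SVZ and 1 in the cortex. Those 7 (*Col2a1*, *Col4a3*, *Col4a4*, *Col4a5*, *Col12a1*, *Col16a1* and *Col25a1*) were each under 1 CPM in the cortex and reached the mean through the SVZ. *Col19a1*, on the cortex side, was under 1 CPM in the SVZ. *Col2a1*, best known from cartilage, had 979 and 0 reads, 139.9-fold higher in the SVZ against the floor of 3 reads (counting interval from log2 6.83). *Col19a1* had 47 and 212 reads, for a log2 ratio of -3.40 (-3.88 to -2.93). Matrix proteases and their inhibitors were divided, with 7 of 19 higher in the SVZ and 5 in the cortex. *Adamts5*, a lectican-cleaving protease, had 173 reads and 1 read, a log2 ratio of 6.21 (3.72 to 11.52), and *Adamts20* had 236 and 492 reads, for a log2 ratio of -2.28 (-2.51 to -2.06).

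Of 17 partners of hyaluronan and proteoglycans, 7 were higher in the SVZ and 2 in the cortex. *Sdc4*, a syndecan, had 470 and 0 reads, 67.2-fold higher in the SVZ against the floor of 3 reads (counting interval from log2 5.77). *Has3*, a hyaluronan synthase, had 6 and 123 reads, for a log2 ratio of -5.58 (-7.05 to -4.42), towards the cortex. *Adgrg1*, the receptor of type III collagen, named here after its value was seen, had 4571 and 236 reads, for a log2 ratio of 3.05 (2.86 to 3.25), opposite to *Col3a1*. Of the other laminin, nidogen and integrin genes only 2 of 15 reached 1 CPM, and neither was past 2-fold.

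**Figure D4:**
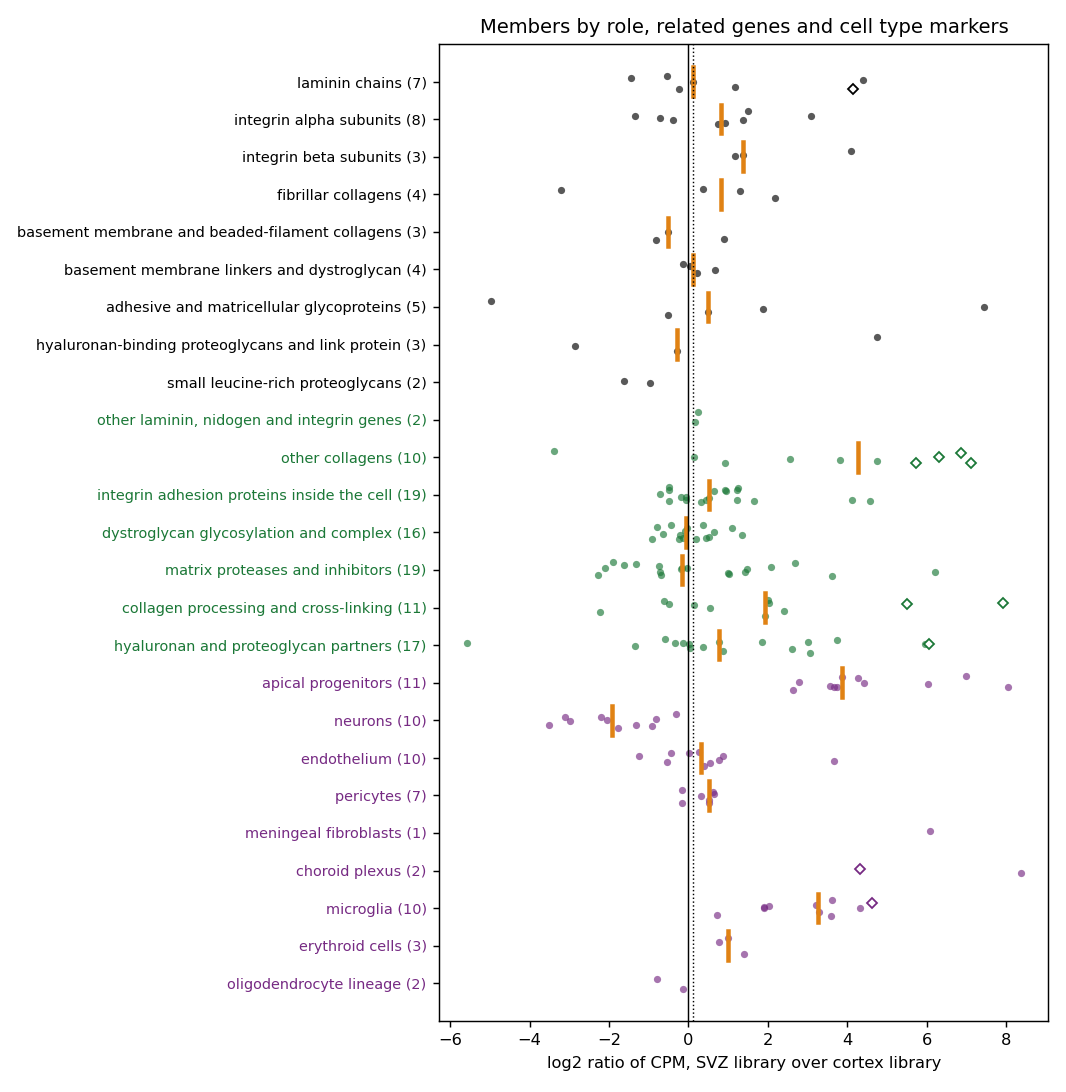
Log2 ratio of CPM, SVZ library over cortex library, for each gene whose mean reached 1 CPM, with 1 line per list and the number of genes in brackets. Black are the matrix and integrin genes by role, green the lists of related genes and purple the cell type markers. Orange bars are medians of lists with 3 or more genes, open diamonds are bounds for genes with no read in 1 library, and the dotted line is the median of all genes at 0.11. Apical progenitor markers lie at a median of 3.87, neuron markers at -1.92 and the 3 integrin beta subunits at 1.36.

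The make-up of the areas is given beside these values, since matrix genes are made by several cell types. All 11 markers of apical progenitors were at least 2-fold higher in the SVZ (summed 7101 and 174 CPM), and 7 of 10 neuron markers in the cortex (3103 and 9747 CPM). Vessel markers were nearer to level. Of 10 endothelial markers 1 was past 2-fold on each side (summed 201 and 81.7 CPM), the SVZ one being *Slco1c1*, a transporter found in vessels and glia, with 115 of the 201 CPM. Of 7 pericyte markers with at least 1 CPM none was past 2-fold (109.8 and 79.3 CPM). Of 10 markers of meningeal fibroblasts, which make fibrillar collagens, decorin and lumican, only *Ogn* reached a mean of 1 CPM, and the list summed to 4.61 and 2.49 CPM. *Ogn* alone, with 159 reads in the SVZ and 1 in the cortex, gave 3.09 and 0.0454 CPM of these sums, so the SVZ sum was mostly this gene. Of this list *Foxc2*, *Twist1* and *Aldh1a2* were at 0 reads in both libraries, *Foxc1* had 31 and 13 reads, *Slc6a13* 28 and 3, *Islr* 10 and 12, and *Nov* 0 and 23. Choroid plexus markers summed to 247 and 0.998 CPM, nearly all of it *Ttr*, and 9 of 10 microglial markers were at least 2-fold higher in the SVZ (114 and 33.3 CPM). Markers of the oligodendrocyte lineage summed to 9.62 and 11.2 CPM, with 2 of 6 at 1 CPM, and erythroid markers summed to 24.6 and 11.9 CPM, with the globin genes *Hba-a1*, *Hba-a2*, *Hbb-bs* and *Hbb-bt*, which have near-identical copies, listed at 0 in both. The part of these cell types in the ratios of the matrix and integrin genes was not tested.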

How the data were processed

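Bulk RNA-seq of LCM tissue was analysed, 1 library per area. Per the methods of the study, 1 ng of RNA entered a low-input cDNA kit, adapters were removed with cutadapt 4.1, and read 1 was mapped to mm10 (GRCm38) with STAR 2.7.9a, also used for counting. Counts as deposited are whole numbers of reads, not normalized, in an unstranded column and 2 stranded columns. STAR leaves out reads that map to several places or overlap more than 1 gene. Molecular identifiers, which the study used for other libraries, are not described for the LCM libraries. A merged table with the authors' own fold changes was not used.

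The unstranded counts were scaled to CPM on gene-assigned reads, so that 1 read was worth 0.0194 CPM (SVZ) and 0.0453 CPM (cortex). The 4 summary lines of STAR were left out. Log2 ratios had no pseudocount. Intervals are exact (Clopper-Pearson, 95%) from the SVZ share of a gene's reads. A count of 0 was set at 3 reads and the ratio called a bound, with no ratio where both counts were at or under 3. A bound took the count of the other library without error. The counting interval of such a gene therefore reached nearer to equal CPM, as for *Itga7*, from log2 2.40 to 2.03. Intervals for read ratios between genes are approximate (odds ratio, normal scale). They leave out PCR duplication and variation between embryos, sections and dissections.

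Positions and exon lengths came from GENCODE M21 by symbol, for all 49 genes, and promoter windows from RefSeq. *Gpr56* was found as *Adgrg1*. Named genes were the 49, the most separated gene per direction of each related list by the interval end nearer to 0, and markers. Genes and lists were chosen with earlier results of these data known. Alternatives were other scalings (edgeR 4.0.16, DESeq2 1.42.0), count columns, depth, pseudocount and filters, with transcript length added after the data were seen. The scripts ran in Python 3.11.15 (scipy 1.17.1, numpy 2.4.6, matplotlib 3.10.9, pandas 2.3.3) and R 4.3.3. The intervals and fold calls were tried on simulated counts that varied by counting error alone. That trial cannot show how they fare under PCR duplication or variation between embryos, sections and dissections.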

Additional observations from a re-analysis of the deposited data

How the results depend on the processing

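No paired analysis was possible because SVZ and cortex are single libraries, and no replicate could be left out. The numbers of matrix and integrin genes past 2-fold (14 and 6, SVZ and cortex) and 4-fold (7 and 3) stayed within 1.5 times, at 13 to 14 and 4 to 7 past 2-fold, and their median log2 ratio lay between 0.23 (1 CPM added) and 0.36, under the TMM, DESeq2 and upper-quartile scalings, totals without the 10 most counted genes, thinning, the stranded sum, 1 CPM added to both values and centring on transcript length, which was chosen after the data were seen. The scalings moved the median of all genes from 0.11 to as little as 0.01. Under all the settings listed above, 5 to 7 of the 39 genes were past 4-fold in the SVZ and 2 to 4 in the cortex. Of all genes, 17.7% to 20.0% (SVZ) and 13.7% to 17.3% (cortex) were past 2-fold there. Past 4-fold they were 7.32% to 10.2% and 4.75% to 7.57%. For 2-fold, 14 and 7 of the 39 under TMM stood beside 18.3% and 17.2%. With 1 CPM added, 13 and 4 stood beside 17.7% and 13.7%. With a mean of at least 10 CPM, which left 16 of the 39 genes, the counts were 7 and 2 past 2-fold, where 14.9% and 12.3% of all 9027 genes were, and 2 and 1 past 4-fold, where 6.75% and 4.70% were. Without a filter the median was 0.66 over 45 genes, where that of all 15847 genes was 0.12. The counts were then 18 and 7 past 2-fold, where 23.0% and 18.2% of all genes were. Past 4-fold they were 10 and 4, where 11.8% and 9.30% of all genes were. The dystroglycan list had 1 gene past 2-fold on each side under the TMM, DESeq2 and upper-quartile scalings, and the integrin adhesion list had 1 on the cortex side in the stranded sum. Of 354 recomputed log2 ratios of single genes 4 changed sign, all of *Agrn*. With 1 CPM added to both values 14 of 45 moved beyond their counting interval, *Bcan* to 2.85, *Tnr* to -2.57 and the bound of *Lama5* to 1.76 among them, and *Itgb8* (0.91), *Itga8* (-0.83) and *Lum* (-0.83) were no longer past 2-fold. Ranks by level per length moved by at most 5 places with the longest transcript as length. Genes with no read in 1 library rest on the depth of that library. Their bounds cover only the counting of that 0, not the counting error of the other library.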

Other observations

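Ratios varied with transcript length across all genes. In 10 bins of genes by the length of their longest transcript, the median log2 ratio, SVZ over cortex, was 0.50 in the shortest bin and -0.12 in the longest. The matrix and integrin genes are long. With each log2 ratio centred on its bin their median was 0.36, where that of all genes was 0 by construction. Of 39 matrix and integrin genes, 14 were then past 2-fold on the SVZ side and 6 on the cortex side. Of all 12274 genes so centred, 18.0% and 17.1% were.

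The collagen IV chains outside the common pair were on the SVZ side, named here after their values were seen. *Col4a3* had 302 reads in the SVZ and 22 in the cortex, a log2 ratio of 2.56 (1.93 to 3.25). *Col4a4* had 810 and 0 reads and *Col4a5* 369 and 0 reads, whereas *Col4a1* and *Col4a2* had the higher CPM in the cortex.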
